A study of Mus musculus with 6 samples.

Results

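Axon guidance genes encode ligands that attract or repel growing axons and the receptors that read them, and the same proteins steer cell adhesion, migration and vessel growth outside the nervous system. The 53 genes described here were chosen by name, with earlier results of these data known. They are ephrins and their Eph receptors, Slits and Robos, and netrins with the receptors Dcc, neogenin (Neo1) and Unc5. Semaphorins with their plexin and neuropilin receptors complete the set. The families are not covered in full, and relatives outside the set, such as Sema7a and Ntn3, are given with the other genes of guidance signalling. By symbol, 48 of them were read in the table of WT and RingKO cells (of 16819 symbols), 46 in the table of the Bcat pair (of 15915 symbols) and 45 in both. Epha5 was read in the Bcat pair only, Robo2, Slit3 and Unc5c in WT and RingKO only, and Ephb1, Ephb6, Efna5 and Nrp2 were not analysed here. A gene with several RefSeq entries (6 members) is given by the entry with the highest mean, picked separately for WT and RingKO and for the Bcat pair. For Sema3b and Plxnb2 the picked entries differ between the comparisons.

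RNA was sequenced from Lgr5-GFP+ intestinal stem cells that were sorted from crypts of the small intestine of C57BL/6 mice. The mice had received 3 injections of tamoxifen and were killed 6 days later. All groups shared the strain Lgr5Gfp-CreERT2, whose name places the GFP reporter and the tamoxifen-activated Cre under Lgr5, a gene of crypt base stem cells. WT (2 libraries) carried nothing more by its label. RingKO (2 libraries) carried Ring1a-/- and Ring1bf/f. Bcat (1 library) carried the allele Ctnnb1-ex3 of the beta-catenin gene, and Bcat_RingKO (1 library) carried Ctnnb1-ex3 with Ring1a-/- and Ring1bf/f. Ring1a is null in every cell of the Ring groups, while the floxed Ring1b is lost only where Cre acts. Ages are not given, and the labels do not say that libraries of a group came from separate animals, so p-values speak for the spread of these libraries alone, and it may be technical. Ring1a (symbol Ring1) and Ring1b (symbol Rnf2) are the ubiquitin ligases of Polycomb repressive complex 1 (PRC1), and they mark histone H2A with ubiquitin at silent developmental genes, most of them with promoters rich in CG letters.

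Eph receptors are receptor tyrosine kinases that bind ephrins on neighbouring cells. In the intestine, Ephb2 and Ephb3 are known Wnt targets of the crypt base, and their ligands ephrin-B1 and ephrin-B2 rise toward the villus, which keeps proliferating and differentiated cells apart. Slits repel through Robo receptors, netrins signal through Dcc, neogenin and Unc5 proteins, and semaphorins signal through plexins, with neuropilins as co-receptors of the secreted class 3.

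The depth over RefSeq entries was 6753789 and 6294932 reads for WT and 2911422 and 2651201 for RingKO. The Bcat library held 922153 reads and the Bcat_RingKO library 4470853. The deposited group means were resolved into the reads of the single libraries, A and B of each group, where the letter does not say which replicate is which. Reads are printed as counted and must be read against depth: the size factors were 1.56 and 1.42 for WT against 0.704 and 0.696 for RingKO, and 0.447 for Bcat against 2.24 for Bcat_RingKO, so a gene with equal reads in WT and RingKO stood higher in RingKO. "Normalized" means divided by these factors. Ring1 had 484 and 363 WT reads and 9 and 11 RingKO reads, and 24 in Bcat and 43 in Bcat_RingKO (normalized ratio 0.358, 95% counting interval 0.213 to 0.617). Rnf2, whose reads can fall outside the floxed part and so do not check the deletion, had 220 and 246 reads in the WT libraries and 142 and 103 in the RingKO libraries. Markers of Lgr5 stem cells were present in every library, with sums of 34615 and 40507 normalized reads in WT against 28161 and 14133 in RingKO (2 of 10 called lower), and Lgr5 itself had 942 and 922 WT reads, 461 and 222 RingKO reads, 146 reads in Bcat and 1505 in Bcat_RingKO. Markers of vessel, nerve and stroma cells, which also use guidance genes, were low: over 7 endothelial markers the normalized reads summed to 150 and 158 in WT against 145 and 125 in RingKO, most of them from Esam. The sum over 9 fibroblast and smooth muscle markers was 35.2 and 22.5 in WT and 39.8 and 27.3 in RingKO, and over 6 nerve and glia markers 29.4 and 49.3 against 36.9 and 40.2. Among epithelial types, Paneth cell markers were higher in RingKO (summed normalized reads 17938 and 12299 in WT, 39957 and 49955 in RingKO) and enteroendocrine markers lower (6694 and 7947 against 2825 and 2980), as were tuft cell markers (814 and 827 against 225 and 253, 4 of 7 called lower). Immune markers summed to 109 and 96.5 against 132 and 228 with 0 of 9 called, and the part of such shifts in the values below was not tested. In RNA from sorted cell pools, fewer cells of a type and less RNA per cell cannot be told apart.

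The first comparison asked how the guidance genes differ between RingKO and WT cells. Of the 48 genes, 9 rose and 0 fell, where both words mean that the authors' deposited table gives an adjusted p below 0.05. Over all 18376 entries 3.14% rose and 1.76% fell by this rule. The counts hold for the chosen members only: of 30 further guidance ligands and receptors, described below, 4 rose and 3 fell, the semaphorin gene Sema7a among the 3. In 19 members both RingKO libraries lay above both WT libraries (18% of all entries did) and in 10 they lay below (33.6%). The 9 that rose were the ligands Slit2, Efna2, Sema3f and Sema6a, the receptors Unc5a, Unc5b, Plxnb1 and Plxnd1, and the co-receptor Nrp1. All 9 were also called higher by edgeR's quasi-likelihood test, by DESeq2 and by limma-trend on the recovered reads. On the lower side, the unadjusted p of Efnb1 was the one below 0.05, and the other tools called 0 (edgeR 2.95% and DESeq2 1.89% of all entries tested). The median log2 ratio in the authors' deposited table was 0.50 for the 48 genes and 0.02 over all entries. The 0.50 includes 11 genes with at most 3 reads over both WT libraries, all with deposited ratios above 0. A gene without reads stands at a higher deposited value in the shallower RingKO libraries. For the 21 members with a WT mean of at least 50 normalized reads the median was 0.04, against -0.23 over all such entries. For the 16 members between these levels it was 0.34, against 0.11. On recovered reads edgeR tested 34 of the 48 members after its filter. It called 14 of these as higher (9.91% of all entries it tested), adding Robo1, Epha2, Epha4, Epha7 and Plxna3. DESeq2 tested 35 members and called 12 (6.88% of all entries it tested), the 9 with Robo1, Epha4 and Sema4g.

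**Figure D1:**
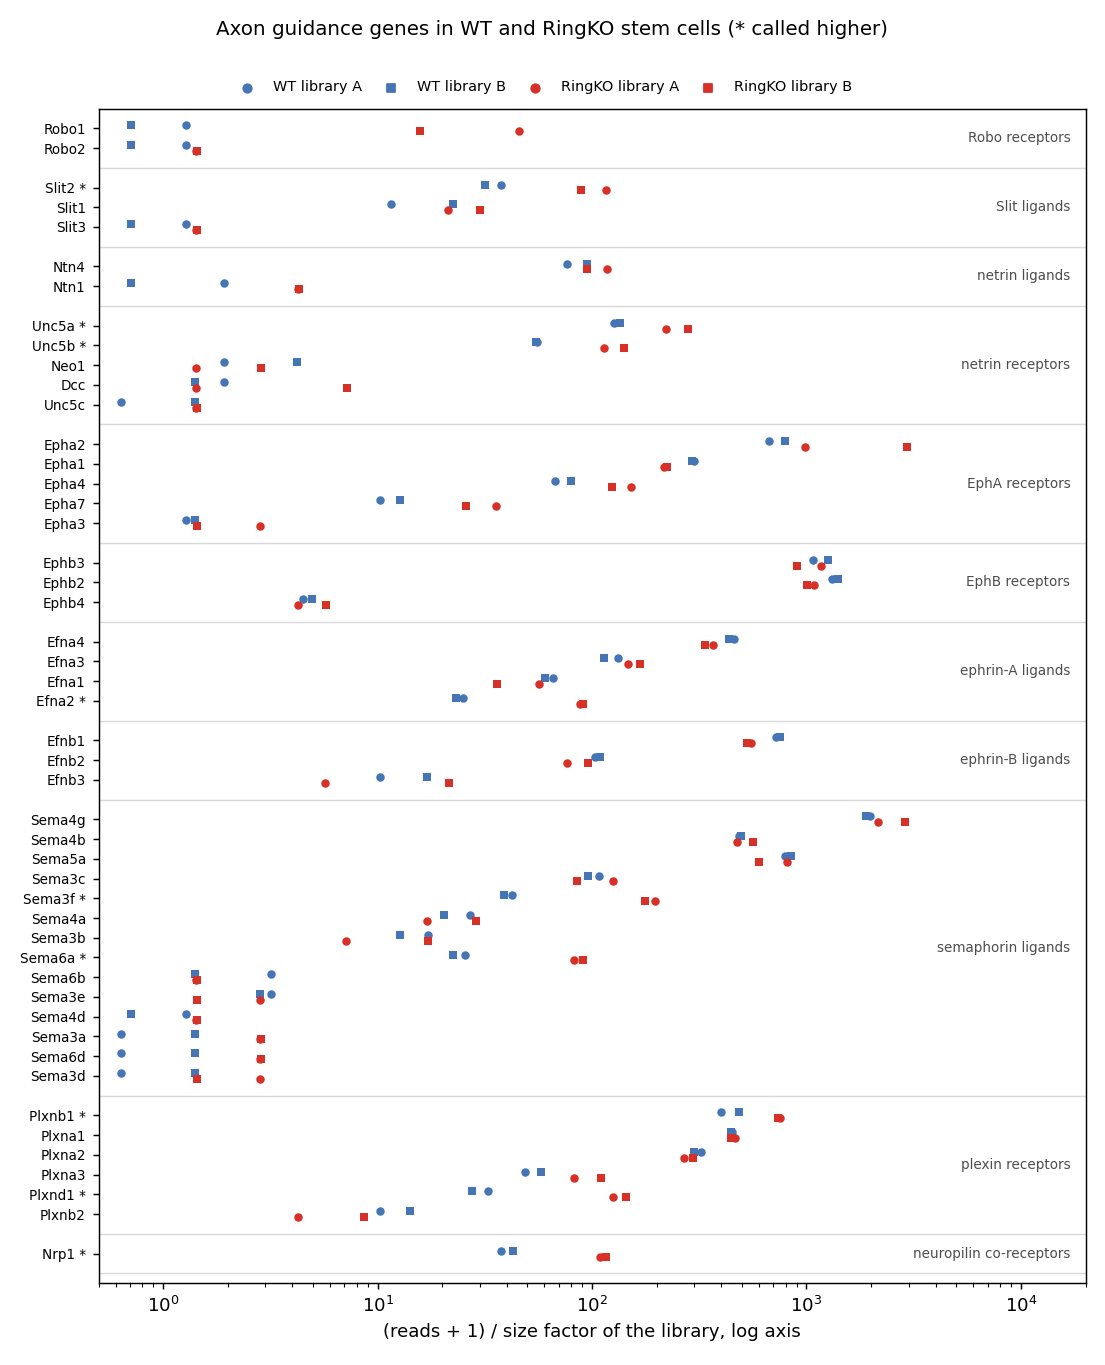
Each row is 1 of the 48 guidance genes of the WT and RingKO table, grouped by subfamily, and each point is 1 library, with (reads + 1) divided by the library's size factor on a log axis; circles and squares are libraries A and B, blue is WT and red is RingKO. The 9 starred genes rose in the authors' deposited table and their red points lie to the right of their blue points, while Ephb2, Ephb3, Efnb1 and Efnb2 sit at or to the left of WT, except for RingKO library A of Ephb3, which lies between the WT libraries.

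By subfamily, 1 of the 15 Eph and ephrin genes rose, against 8 of the other 33 members, a difference that was not tested. By role, 4 of 26 ligands and 5 of 22 receptors and co-receptors rose. By level in WT, 0 of 11 genes silent in WT rose (at most 3 reads over both WT libraries), 6 of 16 genes that were low rose (above that and under a mean of 50 normalized reads), and 3 of 21 expressed genes rose (a WT mean of at least 50). The shares that rose over all entries of these classes were 2.71%, 5.04% and 1.74%, and 3.98% of all expressed entries fell, where 0 expressed members did. These classes use the WT values, so they are not independent of this comparison.

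None of the Eph receptors passed in the authors' deposited table. Ephb2, one of the receptors that hold cells at the crypt base, had 2060 and 1984 reads in the WT libraries and 764 and 697 in the RingKO libraries, where sequencing was shallower. After scaling both RingKO libraries lay below both WT libraries, but the log2 fold change was -0.20 ± 0.13 (edgeR, SE, 2 libraries per genotype) and the gene was not called in the authors' deposited table (adjusted p = 0.446). Ephb3, its close relative, had 1685 and 1779 WT reads and 822 and 631 RingKO reads, and the groups overlapped. Its log2 fold change was 0.01 ± 0.16 by edgeR and -0.17 in the authors' deposited table, so its sign depends on the scaling. TMM scaling, used with edgeR, places all log2 ratios 0.18 above the authors' scaling. Per length, Ephb3 stood at 63.6 RPKM in WT (reads per kilobase of transcript, scaled to the depth over the entries of both tables) and Ephb2 at 28.5. Ephb4 had 6 and 6 reads in the WT libraries and 2 and 3 in the RingKO libraries, too few to compare.

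Epha2, an epithelial Eph receptor, was the highest EphA gene per length in WT, with 42.7 RPKM. It had 1046 and 1129 WT reads and 694 and 2037 RingKO reads, so the RingKO libraries differed from each other far more than the WT libraries did. Its log2 fold change was 1.62 ± 0.44 by edgeR (adjusted p = 0.0497), and it was not called in the authors' deposited table (adjusted p = 0.849). Without RingKO library B the edgeR estimate was 0.58, and without RingKO library A it was 2.22, so the size rests on library B. The smaller value still passed (adjusted p = 0.00236, with the lone library assumed to vary like WT), and DESeq2 on all 4 libraries did not call it (adjusted p = 0.223). Epha1 had 468 and 413 reads in the WT libraries and 152 and 155 in the RingKO libraries (log2 fold change -0.24 ± 0.15, not called), lower in both RingKO libraries. Epha4, better known from axon repulsion, had 104 and 112 WT reads and 106 and 85 RingKO reads. These groups did not overlap after scaling, and the log2 fold change was 1.09 ± 0.19, called by edgeR (adjusted p = 0.0078) and DESeq2 (adjusted p = 0.0193) but not in the authors' deposited table (adjusted p = 0.0855). Epha7 was low, with 15 and 17 WT reads and 24 and 17 RingKO reads, and was called by edgeR (adjusted p = 0.0271) but not by DESeq2 (adjusted p = 0.172). Epha3 had 1 and 1 reads in the WT libraries and 1 and 0 in the RingKO libraries.

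Of the ephrins, Efna2 alone rose. This ligand, tethered to the membrane by a lipid anchor like all ephrin-As, had 38 and 32 WT reads and 61 and 62 RingKO reads. Both RingKO libraries lay far above both WT libraries after scaling, with a log2 fold change of 2.08 ± 0.25 by edgeR (adjusted p = 3.96e-04 in the authors' deposited table). The other ephrin-As were not called. Efna4, the highest per length in WT at 64.2 RPKM, had 721 and 619 reads in the WT libraries and 258 and 233 in the RingKO libraries (log2 fold change -0.17 ± 0.14). Efna1 and Efna3 had log2 fold changes of -0.30 ± 0.27 and 0.53 ± 0.18. Efnb1, a transmembrane ligand of Ephb2 and Ephb3, had 1124 and 1066 WT reads and 387 and 366 RingKO reads. The RingKO libraries were the lower ones, and the fold change of -0.27 ± 0.13 was not called in the authors' deposited table (unadjusted p = 0.0367, adjusted p = 0.337). Efnb2 had 161 and 154 reads in the WT libraries and 53 and 66 in the RingKO libraries (-0.13 ± 0.20), and Efnb3 had 15 and 23 against 3 and 14, with overlapping groups.

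Slit2, a secreted repellent, rose from 58 and 44 reads in WT to 81 and 61 in RingKO. The log2 fold change was 1.75 ± 0.24 by edgeR (adjusted p = 0.00208 in the authors' deposited table), and the groups did not overlap. Slit1 had 17 and 31 WT reads and 14 and 20 RingKO reads, with overlap, and Slit3 had 1 and 0 in WT and 0 and 0 in RingKO. Robo1, the receptor of Slit2, was at the edge of detection in WT, with 1 and 0 reads, and had 31 and 10 reads in RingKO. Over both libraries this is a ratio of 87.4 with a 95% counting interval of 14.8 to 3534, and most of its RingKO reads came from library A. The authors' deposited table gives it an adjusted p of 0.125, and it was called by edgeR (adjusted p = 0.0038) and DESeq2 (adjusted p = 0.0016). Intervals of counts cover counting error only, here and below. Robo2 had 1 and 0 reads in the WT libraries and 0 and 0 in the RingKO libraries.

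Of the netrin receptors, Unc5a and Unc5b rose, both members of the family that turns netrin attraction into repulsion and that signals cell death when unbound. Unc5a had 198 and 191 WT reads and 154 and 195 RingKO reads, and the scaled RingKO libraries were the higher ones (log2 fold change 1.12 ± 0.18 by edgeR; adjusted p = 0.0155 in the authors' deposited table). Without WT library A or B the edgeR adjusted p of Unc5a was 0.068 and 0.051. Unc5b had 86 and 77 reads in the WT libraries and 79 and 97 in the RingKO libraries (1.39 ± 0.21; adjusted p = 0.0135 in the authors' deposited table), again without overlap. The attractive receptors were hardly seen: Dcc had 2 and 1 WT reads and 0 and 4 RingKO reads, and Neo1 had 2 and 5 against 0 and 1. Of their ligands, Ntn4, a netrin of basement membranes, had 118 and 134 reads in the WT libraries and 82 and 65 in the RingKO libraries with overlapping groups (0.49 ± 0.20), and Ntn1 had 2 and 0 against 2 and 2.

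The largest rises among the called genes were those of Sema3f and Plxnd1. Sema3f, a secreted repellent, had 65 and 54 WT reads and 138 and 122 RingKO reads. Its log2 fold change was 2.40 ± 0.18 by edgeR (adjusted p = 3.27e-09 in the authors' deposited table). Plxnd1, a plexin best known from vessel patterning, had 50 and 38 reads in the WT libraries and 87 and 99 in the RingKO libraries, a log2 fold change of 2.35 ± 0.23 (adjusted p = 5.42e-07 in the authors' deposited table). Nrp1, a co-receptor of class 3 semaphorins and of VEGF, had 58 and 60 WT reads and 76 and 80 RingKO reads (1.67 ± 0.21; adjusted p = 0.00225 in the authors' deposited table). For all 3 genes the 2 groups were well separated. Plxnd1 and Nrp1 are also endothelial genes, and 0 of the 7 endothelial markers were called. The endothelial sum given above is nearly all Esam (204 and 193 WT reads, 89 and 67 RingKO reads) and Vwf (25 and 25, then 10 and 11). The other 5 had few reads: Cdh5 4 and 1 in WT, then 1 and 1, Pecam1 0 and 1, then 0 and 0, Kdr 0 and 2, then 0 and 3, Tie1 0 and 1, then 0 and 3, and Tek 1 and 1, then 2 and 2. At the lower depth of RingKO, the deposited log2 ratios of Kdr, Tie1 and Tek were 1.38, 1.81 and 1.67 in the authors' deposited table, and the part of endothelial RNA in the values of Plxnd1 and Nrp1 was not tested.

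Sema6a, a transmembrane semaphorin, rose from 39 and 31 reads in WT to 57 and 62 in RingKO (log2 fold change 2.04 ± 0.26; adjusted p = 7.03e-04 in the authors' deposited table). Plxnb1, the receptor of Sema4d and the highest plexin per length in WT (11.6 RPKM), had 624 and 685 WT reads and 531 and 512 RingKO reads. Its rise was smaller, 0.94 ± 0.14 by edgeR (adjusted p = 0.0119 in the authors' deposited table), and without WT library A its edgeR adjusted p was 0.13. Plxna3 had 75 and 81 reads in WT against 57 and 76 in RingKO, called by edgeR (adjusted p = 0.0282) but not by DESeq2 (adjusted p = 0.092). The other plexins were not called. Plxna1 had 705 and 631 reads in the WT libraries and 325 and 308 in the RingKO libraries (0.20 ± 0.13), and Plxna2 had 320.2 and 299 normalized reads in WT and 267 and 293 in RingKO (0.04 ± 0.15). Plxnb2 had 15 and 19 WT reads and 2 and 5 RingKO reads.

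None of the semaphorins expressed in WT rose. Sema4g, the most abundant guidance gene per length in WT at 97.3 RPKM, had 3082 and 2696 reads in the WT libraries and 1521 and 2010 in the RingKO libraries (log2 fold change 0.57 ± 0.19, not called by the authors or by edgeR, called by DESeq2 with an adjusted p of 0.047). Sema5a (-0.05 ± 0.16), Sema4b (0.27 ± 0.15) and Sema3c (0.21 ± 0.22) overlapped between the groups. Sema3c had 168 and 135 WT reads and 87 and 58 RingKO reads, and Sema4b 753 and 701 against 333 and 391. Sema5a had 1241 and 1205 against 567 and 418. The others were low or silent: Sema3b had 26 and 17 against 4 and 11, Sema4a 41 and 28 against 11 and 19, Sema3e 4 and 3 against 1 and 0 and Sema6b 4 and 1 against 0 and 0. Sema3a, Sema3d, Sema4d and Sema6d had 1 read each over both WT libraries.

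Of the 11 genes silent in WT, 10 stayed at 5 reads or fewer over both RingKO libraries, and Robo1 was the exception. By the authors' test 0 of the 11 were called, while 1 (Robo1) had an unadjusted p under 0.05 and was called by edgeR and DESeq2. Outside the set, the netrin gene Ntn3 was silent in WT and rose (0 and 0 WT reads, 11 and 7 RingKO reads). The median log2 ratio of these 11 in the authors' deposited table was 1.06, which is also the median of all 3955 entries silent in WT, since a gene without reads stands at a higher deposited value in the shallower libraries. A floor of 3 reads is 1.92 and 2.11 normalized reads in the WT libraries and 4.26 and 4.31 in RingKO. Levels below this could still leave single reads in RingKO, but too few to compare. The number of transcripts of a gene also moved with its level. Over all entries the median WT mean was 46.5 normalized reads for genes with 1 curated RefSeq transcript and 18.0, 10.9 and 7.21 for genes with 2, 3 and more transcripts. Of the 11 silent members 6 have several transcripts, as have Neo1, Ephb4 and Plxnb2, and whether their reads were lost between overlapping entries was not tested. Among the 23 members with 1 transcript, 3 rose (Efna2, Plxnb1 and Plxnd1), where 3.95% of all such entries rose.

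Some promoters are shown because PRC1 is known for CG-rich promoters: those of Efna2, Slit2 and Plxnd1, which rose, and of Robo1, not called in the authors' deposited table. RefSeq windows of 300 bases (250 before to 50 after the start, build GRCm38.p6, matched by symbol) were at hand for 45 of the 53 genes, and a gene with several windows is given by the one with the most CG pairs. Sema3f and Sema6a, which also rose, had no window. The windows of Efna2, Slit2 and Plxnd1, which rose from low levels in WT, hold 31, 30 and 23 CG pairs, and that of Robo1, silent in WT, holds 15. They lie at chr10:80179232-80179531 (plus strand), chr5:47982905-47983204 (plus), chr6:115994956-115995255 (minus) and chr16:72662899-72663198 (plus), in the same order, and are printed 5′ to 3′ with each CG in capitals.
Efna2: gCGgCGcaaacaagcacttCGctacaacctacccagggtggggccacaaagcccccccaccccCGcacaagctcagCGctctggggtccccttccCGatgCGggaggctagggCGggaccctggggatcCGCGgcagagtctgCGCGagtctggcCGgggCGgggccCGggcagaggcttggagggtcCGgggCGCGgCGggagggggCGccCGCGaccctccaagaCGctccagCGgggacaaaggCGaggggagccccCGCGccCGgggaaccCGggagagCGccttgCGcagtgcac
Slit2: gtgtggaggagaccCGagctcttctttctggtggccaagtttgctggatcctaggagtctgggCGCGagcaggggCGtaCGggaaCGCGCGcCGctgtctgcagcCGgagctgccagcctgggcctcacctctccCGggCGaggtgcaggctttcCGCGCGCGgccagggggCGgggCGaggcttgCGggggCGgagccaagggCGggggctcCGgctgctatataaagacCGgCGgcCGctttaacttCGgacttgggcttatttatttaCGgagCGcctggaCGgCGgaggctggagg
Plxnd1: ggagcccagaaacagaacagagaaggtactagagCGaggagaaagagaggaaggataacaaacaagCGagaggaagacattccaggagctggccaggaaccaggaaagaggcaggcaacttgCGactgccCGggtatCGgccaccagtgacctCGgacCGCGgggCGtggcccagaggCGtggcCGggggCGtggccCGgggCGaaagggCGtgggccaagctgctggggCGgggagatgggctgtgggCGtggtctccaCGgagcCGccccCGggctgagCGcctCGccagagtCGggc
Robo1: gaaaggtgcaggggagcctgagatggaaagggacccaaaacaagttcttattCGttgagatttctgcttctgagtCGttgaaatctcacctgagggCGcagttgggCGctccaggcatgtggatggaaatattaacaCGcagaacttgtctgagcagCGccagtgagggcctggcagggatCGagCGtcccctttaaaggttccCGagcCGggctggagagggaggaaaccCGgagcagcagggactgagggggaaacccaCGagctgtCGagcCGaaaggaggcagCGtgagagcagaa
Of all 27018 genes with a window, 11.7% hold at least as many CG pairs as Efna2, 12.9% as Slit2, 23.5% as Plxnd1 and 37.1% as Robo1. The median was 31 CG pairs over the 7 members that rose and have a window, 20 over the 33 that did not rise, 20 over all 12182 symbols of the table and 24 over the 401 symbols that rose. Nrp1 had the fewest among those that rose, 14. Members expressed in WT had a median of 24.5, near the 23 of all expressed symbols, and silent members had 15, against 9 for all silent symbols. These counts describe the windows, and no binding was measured here.

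The second comparison asked how the same genes differ when the Ring alleles are combined with Ctnnb1-ex3. With 1 library per group there is no test. A gene is called past the fold here if its normalized ratio was at least 2-fold with a 95% counting interval that leaves out 1. Of 46 members 26 were higher in Bcat_RingKO and 1 was lower, where 16.8% and 5.53% of all 17076 entries were. All 9 genes that rose in RingKO were among the 26, as were 17 of the 36 that did not. The same share over all entries that rose in RingKO was not worked out, so this overlap cannot be called particular to guidance genes. The tables share no library, but transcript length moved with this ratio. Among entries whose mean reached 50, the median log2 ratio in the authors' deposited table went from -0.76 for transcripts of up to 1000 bases to 0.79 for those above 6000, and guidance transcripts are long, with a median of 5577 bases against 2688 over all entries. Of all entries with at least 4000 bases 24.9% were past the fold. After the ratio was centred on entries of similar length, a choice made after seeing the data, 15 members were higher, 7 of the 9 and 8 of the 36. Only entries with a known length and at least 10 reads over the pair could pass this rule, 33 of the 46 members among them. Of all 11925 such entries 14.7% were higher. Among members with at least 10 reads over the pair, 30 of 33 had a log2 ratio above 0, with a median of 1.53 against 0.36 over all such entries, and of 0.95 against 0 after centring. In RingKO against WT the trend ran the other way and was small, from -0.04 to -0.28.

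**Figure D2:**
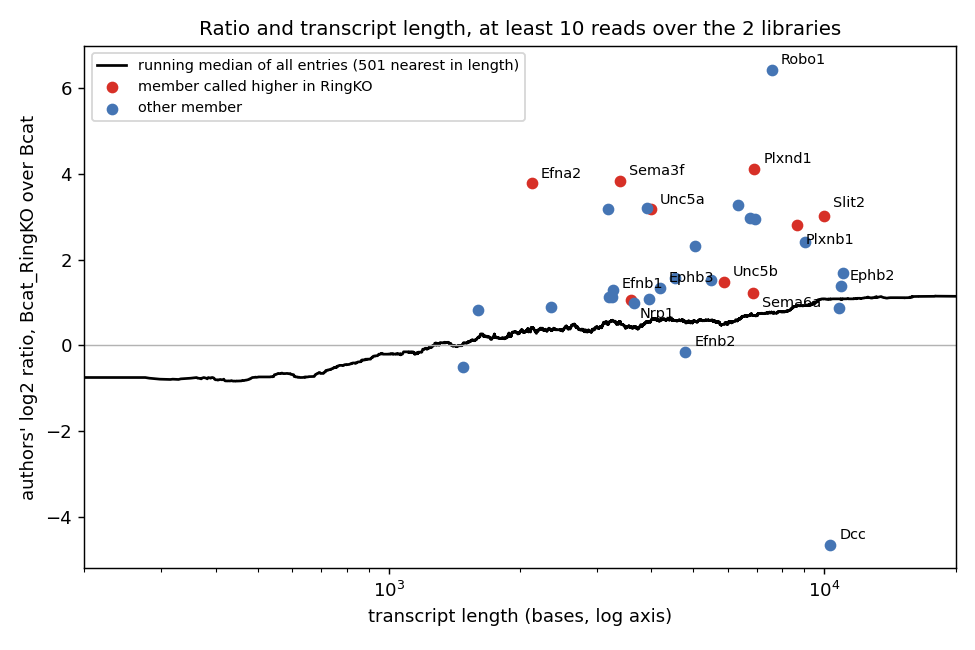
Each point is 1 guidance gene with at least 10 reads over the Bcat and Bcat_RingKO libraries, with its transcript length in bases on a log axis and the authors' log2 ratio on the vertical axis; the line is the running median of all such entries along length. The line climbs with length, Robo1, Plxnd1, Sema3f and Efna2 stand well above it, Ephb2 lies close to it, and Dcc lies far below.

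Robo1 had 0 Bcat reads and 429 Bcat_RingKO reads, at least 28.6-fold higher when the Bcat library is set to a floor of 3 reads. This bound is used for genes with 0 Bcat reads, while genes with 1 to 3 are given as a ratio with its interval, so the 2 kinds of value are not ranked against each other. This is 12.7 RPKM in Bcat_RingKO, beside 0.95 in RingKO and 0.01 in WT, although levels are not strictly comparable between the tables, which the authors scaled separately. Its ligand Slit2 had 6 and 283 reads, a ratio of 9.43 (4.28 to 25.9), and Slit1 had 1 and 49 (9.80, 1.68 to 395). All 3 were past the fold also after centring on length.

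Sema3f had 5 reads in Bcat and 428 in Bcat_RingKO, a ratio of 17.1 (7.28 to 53.0). Plxnd1 had 1 and 173 (34.6, 6.13 to 1374) and Efna2 had 1 and 136 (27.2, 4.80 to 1082). The intervals are wide because the shallow Bcat library held 1 to 5 reads of these genes, and its 3-read floor is 6.71 normalized reads. Unc5a had 5 and 269 reads (10.8, 4.55 to 33.4), Plxnb1 26 and 950 (7.31, 4.96 to 11.2) and Unc5b 14 and 209 (2.99, 1.74 to 5.56). The ratios of Sema6a, with 14 and 175 reads (2.50, 1.45 to 4.67), and Nrp1, with 20 and 216 (2.16, 1.36 to 3.61), were past the fold but stood only 0.53 and 0.61 above entries of similar length on the log2 scale. These are the 2 of the 9 genes that the length-centred ratio left out. Scaled by TMM, which lowers every log2 ratio of the pair by 0.22, Nrp1 had a ratio of 1.86.

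Of the other genes that edgeR had called in RingKO beyond the 9, Epha2 had 27 and 1277 reads (9.46, 6.47 to 14.4), Epha4 8 and 434 (10.8, 5.46 to 25.3), Epha7 2 and 117 (11.7, 3.17 to 97.7) and Plxna3 7 and 309 (8.83, 4.23 to 22.1). All of these and Plxna1, with 27 and 742 reads (5.50, 3.75 to 8.40), stayed past the fold after centring on length. So did Efnb3, with 0 and 44 reads, at least 2.93-fold higher against the floor.

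The crypt receptors were higher in Bcat_RingKO but not past the fold once centred on length. Ephb2 had 91 reads in Bcat and 1207 in Bcat_RingKO (2.65, 2.14 to 3.32), or 0.32 above entries of similar length on the log2 scale, and Ephb3 had 100 and 1279 (2.56, 2.09 to 3.17), or 0.76 above. Efnb1 had 46 and 516 (2.24, 1.66 to 3.10) and Efnb2 33 and 152 (0.921, 0.629 to 1.39). Of these 4 genes Efnb2 alone was not higher. Ntn4 had 17 and 176 reads (2.07), Sema4b 49 and 527 (2.15), Epha1 30 and 380 (2.53), Sema3c 46 and 678 (2.95), Sema4g 167 and 2495 (2.99) and Plxna2 33 and 546 (3.31). None of these 6 was past the fold after centring on length. Sema4g and Sema3c missed it narrowly, at 0.99 and 0.95 above entries of similar length on the log2 scale, where 2-fold is 1. The others stood 0.52 (Sema4b) to 0.72 (Epha1) above. Efna1, Efna3, Efna4 and Sema5a had ratios of 0.745, 1.94, 1.79 and 1.84 and were not past the fold. By level in WT, which these 2 libraries did not enter, 1 of 8 silent, 9 of 16 low and 16 of 21 expressed members were past the fold as higher, where 4.46%, 15.9% and 22.7% of all such entries were. As lower, 1 silent, 0 low and 0 expressed members were past the fold, against 2.36%, 4.89% and 7.42%.

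Dcc was the only member past the fold as lower. It had 14 Bcat reads and 2 Bcat_RingKO reads, a ratio of 0.029 (0.00315 to 0.124). Sums of cell type markers moved both ways in this pair. On the lower side, summed normalized reads of fibroblast and smooth muscle markers were 114 in Bcat and 13.0 in Bcat_RingKO, those of enterocyte markers 9707 and 2582 and those of enteroendocrine markers 4519 and 783. Col1a2 had 25 reads in Bcat and 0 in Bcat_RingKO. Paneth cell markers, higher in RingKO than in WT, went from 9566 to 2767 here (6 of 8 past the fold as lower). Epithelial markers went from 13164 to 7323 (3 of 7 lower). Of 7 goblet cell markers 4 were lower and 2 higher. Of 10 Lgr5 stem cell markers 4 were higher and 1 was lower, and Lgr5 itself had a ratio of 2.06 (1.74 to 2.46). On the higher side, endothelial markers went from 35.8 to 113 (Esam 14 and 224 reads, ratio 3.20, 1.87 to 5.95) and immune markers from 110 to 193. Their part in the ratios of this pair was not tested.

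**Figure D3:**
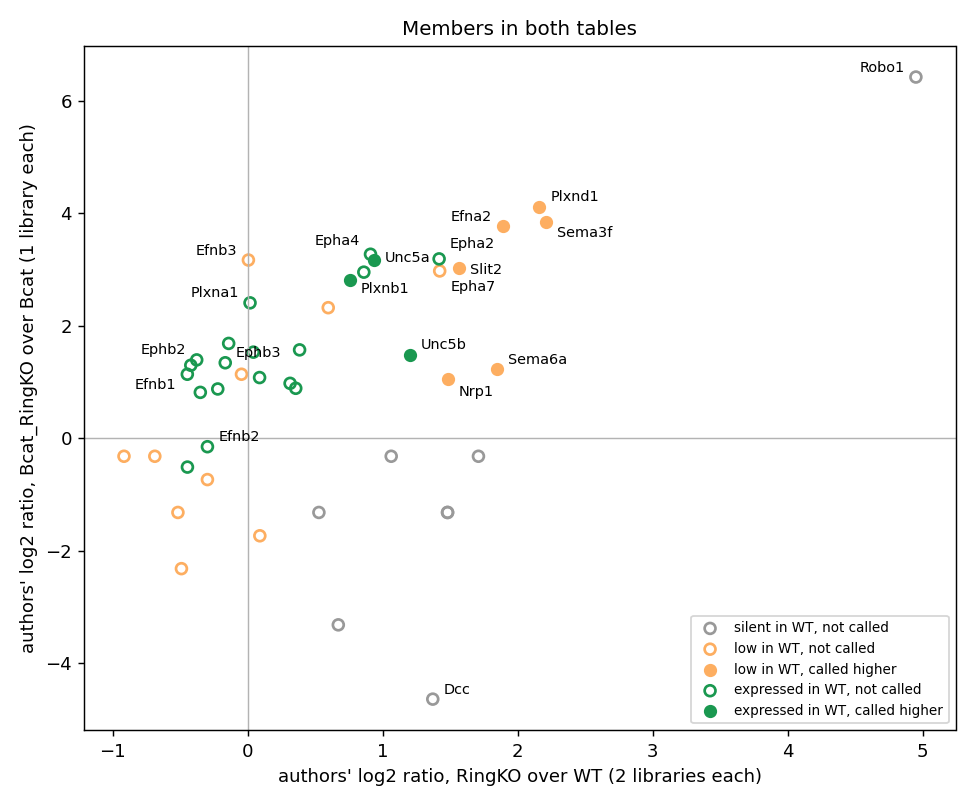
Each point is 1 of the 45 guidance genes in both tables, with the authors' log2 ratio of RingKO over WT (2 libraries each) on the horizontal axis and of Bcat_RingKO over Bcat (1 library each) on the vertical axis; colour gives the level in WT and filled points rose in RingKO. For Sema3b and Plxnb2 the axes use different RefSeq entries. The 9 filled points lie in the upper right, Robo1 lies beyond them, Ephb2 and Efnb1 lie left of 0 and above it, and most silent genes lie below 0 on the vertical axis, where a gene with few reads falls because 1 read weighs more in the shallower Bcat library.

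**Figure D4:**
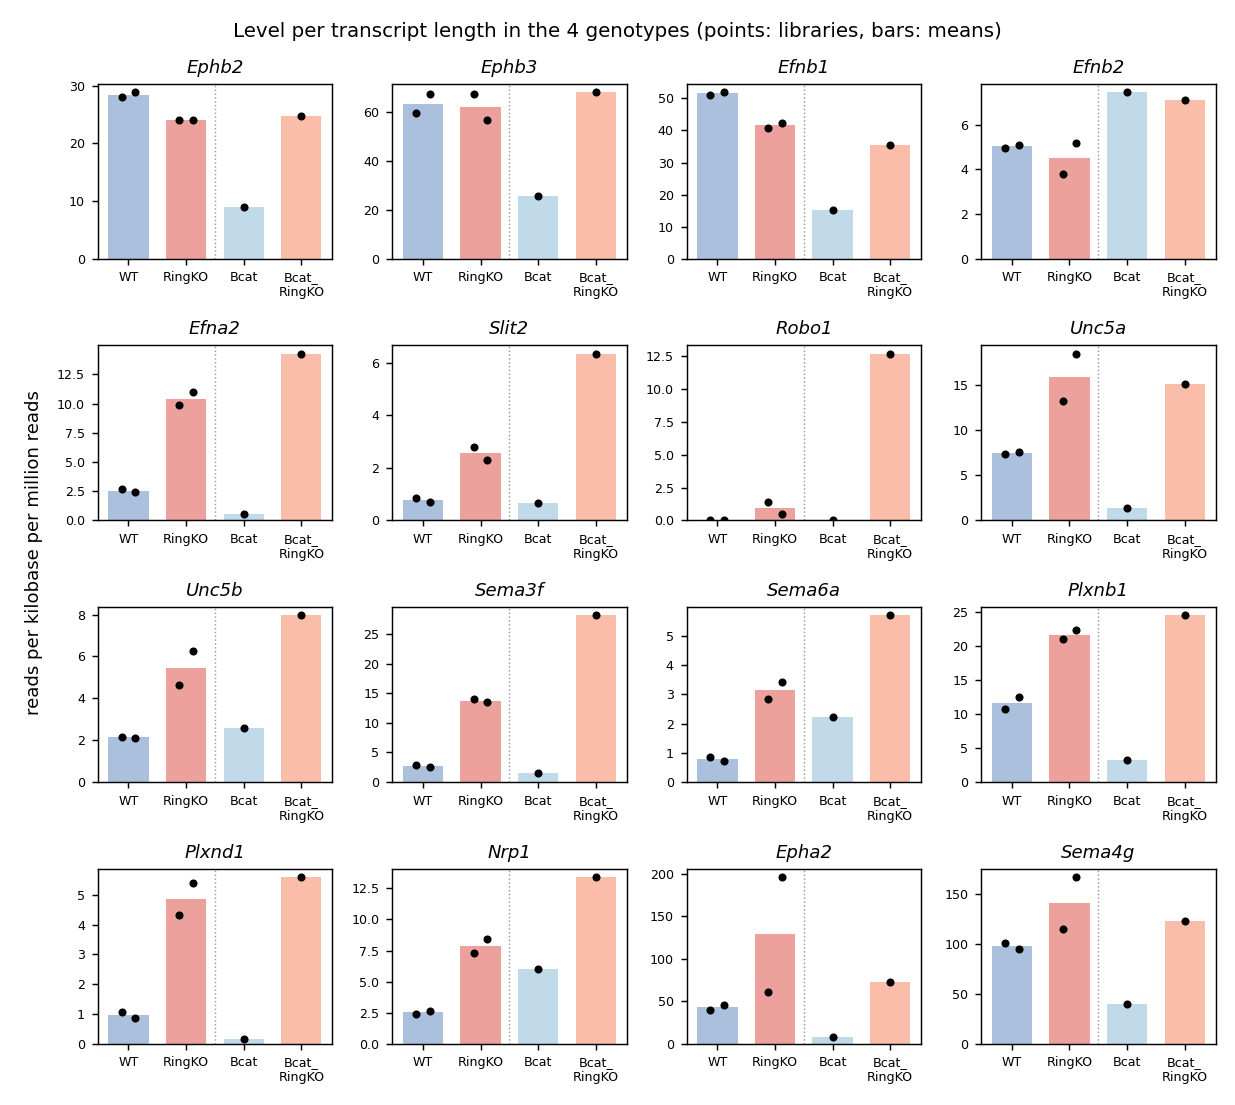
Bars give the mean and points the single libraries of 16 guidance genes in RPKM, on linear axes that start at 0 and differ between panels; the dotted line parts the tables, which the authors scaled separately. Slit2, Sema3f, Plxnd1 and Efna2 are low in WT and Bcat and higher in RingKO and Bcat_RingKO, while Ephb2, Ephb3 and Efnb1 have RingKO means at or below WT and are lowest in the Bcat library.

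Other genes of guidance signalling were read from lists chosen by function. Of 30 further guidance ligands and receptors measured in WT and RingKO, 4 rose and 3 fell. Rgma, a ligand of neogenin, rose from 11 and 10 reads to 50 and 44 (log2 fold change 3.41 ± 0.32), as did the chemokine receptor gene Cxcr4 (8 and 12 to 28 and 19), the hedgehog co-receptor gene Boc (196 and 191 to 181 and 153, log2 fold change 1.06 ± 0.15) and Ntn3 (0 and 0 to 11 and 7). Those that fell were well expressed in WT: Sema7a went from 1321 and 1244 reads to 284 and 226 (-1.06 ± 0.14), the adhesion molecule gene L1cam from 825 and 712 to 103 and 183 (-1.14 ± 0.26) and Rgmb from 1663 and 1472 to 438 and 400 (-0.63 ± 0.13). These 3 had ratios of 1.12, 1.34 and 1.08 in the Bcat pair. Of 49 genes that carry the signal inside the cell 1 rose, Srgap3, a GTPase-activating protein that binds Robo receptors (41 and 53 to 51 and 64 reads, 1.56 ± 0.28), and 0 fell, and of 6 genes of Eph and ephrin shedding 0 passed. The 30 ligands and receptors summed to 2964 and 2969 normalized reads in WT and 1954 and 1821 in RingKO, and 8 of them had at most 3 reads over the 4 libraries.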

How the data were processed

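Per the labels' protocols, RNA was extracted with RNeasy Plus Micro columns and libraries were made with TruSeq RNA v2. TopHat, DESeq and the build mm9 are named in the submitters' processing notes. For the read counter and its strand setting, the sources used here give nothing. The authors deposited normalized signal per RefSeq entry, as group means for WT and RingKO and as 1 value per library for the Bcat pair, with a fold (ratio) and its log2 value. The authors deposited p-values and adjusted p-values for WT and RingKO only, and recomputing the Benjamini-Hochberg adjustment on the 18376 p-values gave the deposited values within 2%. The authors scaled the 2 tables separately.

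The values show that a deposited signal is 1 more than the reads, over a library size factor. In the Bcat pair 100% of values gave whole reads within 0.001. In WT 18357 means and in RingKO 18374 had 1 solution for the reads of both libraries, and of several solutions (19 and 2) the one nearest to equal normalized values was taken. On simulated means 99.98% and 100% came out right. The letters A and B cannot be matched to replicate numbers.

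Calls use the authors' adjusted p under 0.05. The log2 fold changes and their SE are from edgeR 4.0.16 (quasi-likelihood, TMM, filterByExpr) on recovered reads, with DESeq2 1.42.0 and limma-trend 3.58.1 (pseudocount 1) as alternatives. Tested on simulated data for RingKO against WT, edgeR recovered 39 of 100 genes with 2-fold and 98 of 100 with 4-fold changes (11047 entries tested). The simulation changed no genes with low means and gave every gene the same spread between libraries. These rates therefore do not cover silent genes or genes as variable as Epha2. Counting intervals are exact conditional binomial (Clopper-Pearson) at 95%, and floors are 3 reads. The named genes are the members, and of each other list up to 4 called genes per direction by smallest adjusted p. The endothelial markers and Col1a2 were named after their values were seen. The members and lists were chosen with earlier results of these data known. Promoter windows are from RefSeq (GRCm38.p6), a build other than that of the files.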

Additional observations from a re-analysis of the deposited data

Results flagged for a closer look

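In 5 members both RingKO libraries lay below both WT libraries while the ratio of Bcat_RingKO to Bcat was above 1: Epha1 (ratio 2.53), Ephb2 (2.65), Efna4 (1.79), Efnb1 (2.24) and Plxna2 (3.31). The difference between the comparisons was not tested. Of all entries 33.6% lie lower in RingKO without overlap, none of the 5 fell in the authors' deposited table, and after centring on transcript length their log2 ratios in the Bcat pair were 0.72, 0.32, 0.64, 0.55 and 0.60, none of them past the fold.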

How the results depend on the processing

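The count of 9 members that rose became 14 with edgeR, with edgeR on DESeq2 size factors, with edgeR without its filter and with the entries of a symbol summed. Leaving out 1 library at a time with edgeR gave 8 to 15, with the lone library of a group assumed to vary like the other group. The count was 12 with DESeq2, 11 with limma-trend and 7 at 2-fold or more, and 0 members fell under any of these. It was 3 among genes with 1 curated RefSeq transcript, an alternative with fewer genes that was chosen after seeing the data. Shares over all entries were not worked out for the other edgeR settings, the fits without 1 library, limma-trend or the 2-fold rule. The counts at these settings therefore cannot be set against all entries. Robo1 and Epha2 passed under some alternatives and not in the authors' test, and Unc5a and Plxnb1 lost their call in leave-one-out fits named beside their values. In the Bcat pair the count of 26 became 14 at 3-fold and 15 after centring on length, chosen after seeing the data, and it was 22 with TMM. Apart from the stricter fold, the cause of these changes was not tested. In the Bcat pair the shares over all entries at 3-fold and with TMM were not worked out either. No paired analysis was possible because the recovered libraries carry no replicate numbers. Depth limits genes near 0 most in the Bcat library, where 3 reads are 6.71 normalized reads.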
